A study of Mus musculus with 9 samples.

Results

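The genes described here were low in control luminal cells of the mouse mammary gland, high in cells labelled as lacking the Hippo kinases LATS1 and LATS2, and lower again in cells labelled as lacking LATS1, LATS2 and the transcription factor Sox9. They were chosen on their own levels, in CPM, the usual unit for read counts scaled to the total of each library. A gene was taken as induced if its LATS mean was at least 2 CPM and at least 4 times the CTL mean, and if the lowest LATS library lay above the highest CTL library. An induced gene became a member if its LATS-S9 mean was at most 0.5 of the LATS mean and its highest LATS-S9 library lay below its lowest LATS library. Genes whose symbols start with Col, Sema, Wnt, Sox, Adamts or Mmp were left out. Of 55450 genes in the table, 991 were induced and 109 were members, which is 11.0% of the induced genes. Of the members, 100 are annotated as protein-coding and 9 as noncoding. Among the same induced genes, 91 moved the opposite way, with a LATS-S9 mean at least 2 times the LATS mean and no overlap of libraries.

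RNA was sequenced from live EYFP+ cells that had been sorted from mammary glands of adult nulliparous female mice, in 9 libraries of which each group had 3. The group called CTL was lsl-EYFP;K8CreERT2. The group called LATS was LATS1/2f/f;lsl-EYFP;K8CreERT2. The group called LATS-S9 carried Sox9f/f in addition to all the alleles of LATS. All groups, CTL included, carried the EYFP reporter and the tamoxifen-inducible Cre driven by the promoter of Krt8, a keratin of luminal cells, and all received 5 doses of 2 mg tamoxifen and were collected 7 days after the last dose. Cells were gated on EYFP and a live-cell dye, with no depletion of other lineages stated for this sort. A library held between 44167762 and 61967651 counted reads. The labels do not say whether the libraries of a group came from separate mice, so the spread between them may be partly technical.

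LATS1 and LATS2 are kinases that phosphorylate the coactivators YAP and TAZ and keep them out of the nucleus, where these otherwise act on genes mainly through the TEAD DNA-binding proteins. Sox9 is a DNA-binding factor of the SOX family, best known for directing cartilage formation. In the mammary gland it is expressed in luminal progenitor cells. A gene that was high in LATS and lower in LATS-S9 is described below only by those levels, since the values that chose the members cannot also test them.

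The targeted genes were read first. Lats1 was at 104, 112 and 108 CPM in CTL, at 41.3, 36.8 and 44.7 CPM in LATS and at 35.8, 33.3 and 31.4 CPM in LATS-S9, with no overlap between CTL and the other groups. Lats2 was at 19.1, 16.3 and 22.2 CPM in CTL, at 24.8, 27.4 and 32.9 CPM in LATS and at 34.0, 28.6 and 22.8 CPM in LATS-S9, so that its whole-gene count was not lower in either group labelled as its deletion. Sox9 was at 428, 377 and 392 CPM in CTL, at 142, 182 and 238 CPM in LATS and at 153, 122 and 119 CPM in LATS-S9. Sox9 thus overlapped between LATS and LATS-S9, and the log2 fold change of LATS-S9 against LATS was -0.40 (SE 0.19, adjusted p = 0.25, edgeR quasi-likelihood test). Counts were summed over whole genes, so reads from exons outside a deleted part still count, and the groups below are the libraries labelled LATS and LATS-S9. Of the effectors, Wwtr1, which encodes TAZ, had a log2 fold change of -0.65 in LATS-S9 against LATS (SE 0.14, adjusted p = 0.025), under the 2-fold threshold, and Yap1 had one of -0.13 (SE 0.14, adjusted p = 0.66).

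Libraries of a group differed from each other. LATS-S9 replicate 1 was the lowest LATS-S9 library for 65 of the 109 members (59.6%) and for 61.8% of the induced genes, and LATS-S9 replicate 3 was the highest for 57 members (52.3%) and for 48.5% of the induced genes. The summed level of the members was 525, 605 and 469 CPM in CTL, 5299, 6556 and 5624 CPM in LATS and 1688, 2356 and 2656 CPM in LATS-S9. Applied without LATS-S9 replicate 1, the rule found 110 genes, 94 of them members. Applied without LATS replicate 1, it found 179 genes, of which 95 were members and 84 were added. Leaving out any other library gave from 102 to 120 genes, and 64 members were found under all 12 other scalings and left-out libraries.

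Across the members, the median level was 0.822 CPM in CTL, 12.7 CPM in LATS and 3.57 CPM in LATS-S9, and the LATS mean ran from 2.23 to 804 CPM. The median ratio of LATS-S9 to LATS was 0.319, from 0.0142 to 0.496, against a median of 0.900 over all induced genes. The plot of induced genes shows the members as the lower edge of a broad cloud rather than as a separate group. Just inside the threshold on this ratio were Snhg10 at 0.496 and Pkia at 0.495, and just outside it were Slc43a3 at 0.507 and Irak1bp1 at 0.512. Just inside the threshold on the ratio of LATS to CTL were Gpc4 at 4.09 and Ctxn1 at 4.28, and just outside it were Dcdc2a at 3.94 and Cdkn1c at 3.71.

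**Figure D1:**
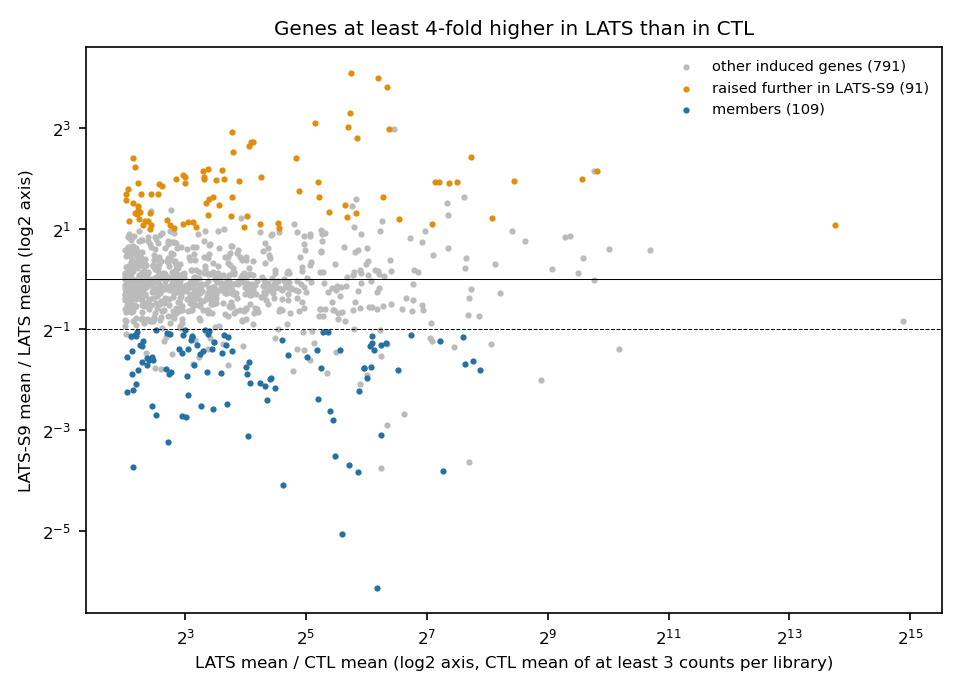
Each point is an induced gene, with the ratio of the LATS mean to the CTL mean on the x axis and the ratio of the LATS-S9 mean to the LATS mean on the y axis, both on log2 axes. A CTL mean below 3 counts per library is drawn at that floor. The 109 members lie below the dashed line at 0.5, the 91 genes raised further in LATS-S9 lie at the top, and the other induced genes lie between and around them.

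Of the members, 108 passed the filter on low counts, the exception being the pseudogene Gm45315. The lowest LATS library lay above the highest CTL library in 33.9% of all genes tested, and the highest LATS-S9 library lay below the lowest LATS library in 19.2%, as the rule required of all members. In the edgeR fit across 19357 genes, calls needed more than a 2-fold difference with an adjusted p no higher than 0.05. By this, 106 of these 108 were called higher in LATS than in CTL, where 17.1% of all genes tested were, and 56 were called lower in LATS-S9 than in LATS, where 2.16% of all genes tested were. The rule used both contrasts, so nothing is read from these counts. The 56 were 86 by DESeq2 and 1 by glmTreat, which tests against a fold change of 2 and called 14 genes in all, and ran from 6, without LATS-S9 replicate 2, to 61, without LATS replicate 1, when 1 library was left out. The 56 members were among 418 genes called lower in LATS-S9 against LATS, of which 7 more were induced and 355 were not induced by the thresholds above. Of these 355, 171 were called lower in LATS than in CTL, 39 were called higher and 145 were not called.

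The promoters of 77 members could be matched in RefSeq, with 101 start sites, each taken as 250 bases before and 50 bases after the start. Those of Ogn, Epb41l2, Acta2, Igf1 and Vim are shown in part because their genes are among those with the highest LATS level or the lowest ratio, or, for Igf1, because it is a growth factor described below, and because they hold the letters searched for. The 250 bases before the start are printed 5′ to 3′ on the strand of the gene (build GRCm38.p6), with matches in capitals. Ogn (chr13:49607765-49608014, plus strand) holds GGAATG and the letters TATAAA on both strands. Epb41l2 (chr10:25408118-25408367, plus strand) holds ACAAT at 2 places on the opposite strand, written ATTGT. This window precedes a start inside the gene, which is annotated from 25359798 to 25523519. Acta2 (chr19:34255374-34255623, minus strand) holds GGAATG, Igf1 (chr10:87860861-87861110, plus strand) holds TGAATCA, a match to the loose AP-1 pattern TGANTCA, and Vim (chr2:13574061-13574310, plus strand) holds TATAAA. In the 50 bases after the start, which are not printed, Igf1 and Ogn each hold ACAAT at 1 place.
Ogn: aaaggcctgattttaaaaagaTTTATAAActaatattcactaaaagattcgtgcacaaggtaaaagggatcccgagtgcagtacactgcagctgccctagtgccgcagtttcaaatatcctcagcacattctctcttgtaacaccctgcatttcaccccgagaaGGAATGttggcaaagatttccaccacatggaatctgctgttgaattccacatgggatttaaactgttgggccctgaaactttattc
Epb41l2: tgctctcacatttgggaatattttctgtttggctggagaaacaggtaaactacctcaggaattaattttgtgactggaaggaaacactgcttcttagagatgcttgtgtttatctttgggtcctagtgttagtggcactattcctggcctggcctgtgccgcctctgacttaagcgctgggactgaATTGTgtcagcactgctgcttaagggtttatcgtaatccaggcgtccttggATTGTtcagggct
Acta2: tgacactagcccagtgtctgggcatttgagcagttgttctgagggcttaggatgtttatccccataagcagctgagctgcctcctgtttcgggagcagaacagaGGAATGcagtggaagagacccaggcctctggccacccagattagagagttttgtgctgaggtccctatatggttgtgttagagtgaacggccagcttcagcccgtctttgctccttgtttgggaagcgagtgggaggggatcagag
Igf1: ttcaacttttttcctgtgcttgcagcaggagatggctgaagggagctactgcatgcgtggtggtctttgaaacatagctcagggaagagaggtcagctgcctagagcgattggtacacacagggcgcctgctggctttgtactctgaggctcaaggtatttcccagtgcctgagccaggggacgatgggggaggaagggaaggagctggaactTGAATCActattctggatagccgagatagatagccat
Vim: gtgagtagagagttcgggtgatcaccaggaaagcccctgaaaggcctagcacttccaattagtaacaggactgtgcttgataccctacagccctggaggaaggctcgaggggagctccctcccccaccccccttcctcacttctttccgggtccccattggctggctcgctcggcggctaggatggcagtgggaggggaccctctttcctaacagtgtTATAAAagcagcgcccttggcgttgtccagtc

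The letters searched were the SOX core ACAAT, its longer form AACAAT, the TEAD motif GGAATG, the loose AP-1 pattern TGANTCA, the AP-1 site TGACTCA and the TATA box TATAAA, each on both strands. ACAAT was in 21.8% of the 101 member windows, in 23.7% of the 760 windows of the other induced genes and in 31.0% of all 32851 promoter windows. AACAAT was in 7.92%, 6.97% and 10.7% of these windows. GGAATG was in 13.9%, 14.5% and 14.7% of the same windows. TGANTCA, which also admits letters that are not the site of the Fos and Jun family, was in 14.9% of member windows, in 8.16% of those of the other induced genes and in 7.81% of all. TGACTCA, the site itself, was in 10.9%, 5.92% and 5.20% of the same windows. Windows of a gene with several starts can overlap, and counted by gene TGACTCA was in 13%, 6.49% and 5.95%. TATAAA was in 12.9%, 11.6% and 13.6%. These are shares of windows of 300 bases near the start and say nothing of sites elsewhere.

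The member with the highest level per kilobase of exon was Vim, the intermediate filament vimentin of mesenchymal cells, with a LATS mean of 169.5 CPM per kilobase. Vim was at 14.7, 8.86 and 8.24 CPM in CTL, at 625, 914 and 874 CPM in LATS and at 86.5, 360.3 and 525 CPM in LATS-S9. All LATS-S9 libraries lay above CTL and below LATS, and LATS-S9 replicate 1 was the lowest of its group. Next by level per kilobase came Cpe, the carboxypeptidase that trims prohormones, at 145 CPM per kilobase, and Lurap1l at 136. Cpe was at 36.5, 35 and 17.1 CPM in CTL, at 334, 456 and 343 CPM in LATS and at 112, 172 and 169 CPM in LATS-S9, without overlap between any groups. Lurap1l was 5.73-fold higher in LATS than in CTL and 2.03-fold lower in LATS-S9 than in LATS.

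Acta2, the smooth muscle actin of myoepithelial cells and myofibroblasts, was at 17.9, 18.7 and 12 CPM in CTL, at 166, 290.3 and 213 CPM in LATS and at 67.9, 98.2 and 81.4 CPM in LATS-S9. The 3 groups stood apart, with LATS-S9 between CTL and LATS. Other myoepithelial markers did not all follow it. Krt14, the keratin of basal cells, was at 16.7, 9.46 and 11.0 CPM in CTL, at 4994, 2681 and 2668 CPM in LATS and at 2035, 4339 and 6431 CPM in LATS-S9, and its log2 fold change of LATS-S9 against LATS was 0.41 (SE 0.38, adjusted p = 0.59). Krt17 rose further in LATS-S9, by a log2 fold change of 2.76 (SE 0.27, adjusted p = 0.0015), while the calponin Cnn1 fell by 2.09 on the log2 scale (SE 0.21, adjusted p = 0.0015) and the oxytocin receptor Oxtr fell by 2.55 (SE 0.59, adjusted p = 0.034). Of the list of contractile and sarcomere genes, 47 were tested and 8 were induced. The members among them were Acta2 and Nebl, the actin-binding protein nebulette, which was 7.73-fold higher in LATS than in CTL and 2.76-fold lower in LATS-S9 than in LATS.

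Also high per kilobase was Mme, the surface peptidase neprilysin (CD10) carried by myoepithelial and some stromal cells. Mme was at 93.6, 141 and 73.1 CPM in CTL, at 365, 847 and 411 CPM in LATS and at 130.0, 208 and 193 CPM in LATS-S9, so that LATS-S9 overlapped with CTL. Epb41l2, a membrane skeleton protein of the 4.1 family, was at 14.7, 20.3 and 30.2 CPM in CTL, at 649.9, 424 and 508 CPM in LATS and at 234, 202 and 247 CPM in LATS-S9, and kept 40.7% of its increase. Of the 140 tested proteases and inhibitors, 25 were induced and 3 were members, Mme, Cpe and the neurotrypsin gene Prss12. On this list 14 genes were called higher in LATS-S9 than in LATS and 5 lower, where 1.55% and 2.16% of all genes tested were called higher and lower.

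**Figure D2:**
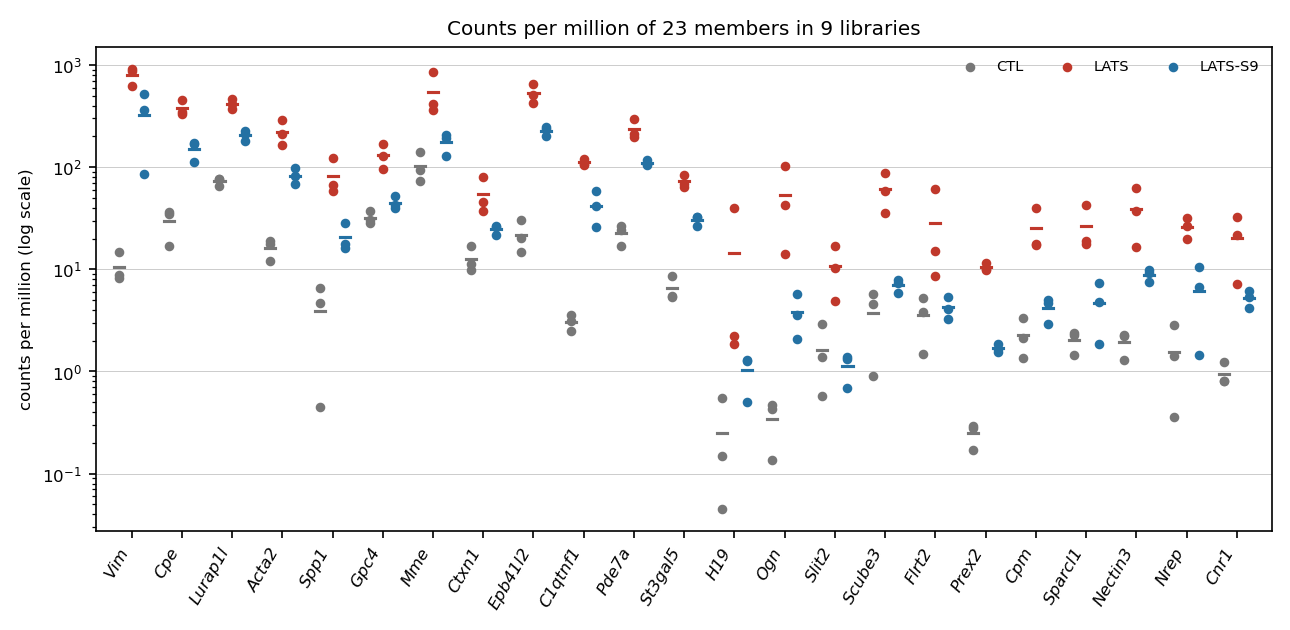
CPM on a log axis for 23 members in the 3 CTL, 3 LATS and 3 LATS-S9 libraries, with a bar at each group mean. The first 12 genes had the highest LATS mean per kilobase of exon and the others had the lowest ratio of LATS-S9 to LATS among members with a LATS mean of at least 10 CPM. In each gene every LATS point lies above every LATS-S9 and CTL point, as the rule requires, and the LATS points of H19, Ogn and Flrt2 are the most spread of those drawn.

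Extracellular matrix genes held more members than any other list counted here. Of 98 tested matrix glycoproteins and proteoglycans, 24 were induced and 8 were members, which is 33.3% of the induced ones, beside 11.0% of all induced genes. The members were Postn, Gpc4, Ogn, Lama4, Eln, Sparcl1, Fbln5 and Gpc3. Over the whole list 12 genes (12.2%) were called lower in LATS-S9 than in LATS and 3 (3.06%) were called higher, beside 2.16% and 1.55% of all genes tested. Of the 12, 7 were members, which the rule chose for being lower there. The median log2 fold change of the list was -0.38, against -0.02 over all genes tested. Without the members the median was -0.32. Called lower outside the members were Spon1, the axon-guiding matrix protein spondin 1, with a fall of 2.14 on the log2 scale (SE 0.22, adjusted p = 0.0017), Smoc1, Igfbp5, Vwa1 and Gpc6. None of these met the thresholds for induced genes. Igfbp5 had means of 2891, 211 and 37.6 CPM in CTL, LATS and LATS-S9, and Gpc6 of 47.5, 12.1 and 4.47 CPM. Both were thus lower in LATS than in CTL, while Spon1, Smoc1 and Vwa1 had higher means in LATS. Called higher were Fbln2, by 2.07 (SE 0.31, adjusted p = 0.0082), Sdc1 and Ecm1.

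Ogn, the small leucine-rich proteoglycan osteoglycin, had the largest relative loss among the matrix members. It was at 0.468, 0.428 and 0.136 CPM in CTL, at 14.1, 103 and 42.6 CPM in LATS and at 5.71, 3.57 and 2.08 CPM in LATS-S9, and kept 6.53% of its increase. LATS replicate 2 was the highest and all LATS-S9 libraries stayed above CTL. Its neighbour Omd, encoding osteomodulin of the same protein family, lies 15.2 kb away on chromosome 13 and was at 0.0638, 0.150 and 0.113 CPM in CTL, at 0.792, 3.51 and 2.39 CPM in LATS and at 0.452, 0.27 and 0.536 CPM in LATS-S9. In both genes LATS replicate 2 was highest and LATS replicate 1 lowest of the LATS libraries.

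Postn, the matricellular protein periostin, was at 4.77, 4.49 and 4.62 CPM in CTL, at 219, 309 and 125 CPM in LATS and at 41.5, 105 and 97.7 CPM in LATS-S9. It remained 17.6-fold above CTL in LATS-S9. The laminin chain gene Lama4 was at 4.11, 5.03 and 2.76 CPM in CTL, at 38.1, 40.1 and 34.3 CPM in LATS and at 8.33, 14.6 and 17.4 CPM in LATS-S9. Here the LATS libraries lay close together and LATS-S9 replicate 1 was again the lowest of its group. Sparcl1, a secreted relative of SPARC, was at 1.45, 2.27 and 2.38 CPM in CTL, at 42.6, 19.0 and 17.6 CPM in LATS and at 1.84, 4.83 and 7.40 CPM in LATS-S9, where replicate 1 fell within the CTL range.

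Eln, which encodes elastin, was 16.2-fold higher in LATS than in CTL and kept 22.3% of that increase in LATS-S9, and Fbln5, the fibulin that helps assemble elastic fibres, was 26.0-fold higher and kept 32.7%. Not all genes acting on elastic fibres were lower in LATS-S9: Lox, which crosslinks elastin and collagen, rose from a mean of 17.3 CPM in LATS to 92.6 CPM in LATS-S9, by 2.51 on the log2 scale (SE 0.32, adjusted p = 0.0042). The antisense transcript Gm30003, also a member, overlaps Eln by 0.281 kb on the opposite strand. The authors describe counting on the same strand. Whether the counts do separate the strands was not tested, so the reads of the shared stretch are uncertain for both genes. The glypicans Gpc4 and Gpc3, cell-surface heparan sulfate proteoglycans, lie 107 kb apart on chromosome X. Gpc4 was at 28.4, 30.5 and 37.1 CPM in CTL, at 96.5, 127 and 169 CPM in LATS and at 51.8, 40.0 and 42.3 CPM in LATS-S9, so that LATS-S9 came within 1.40-fold of CTL. Spp1, the secreted phosphoprotein osteopontin, was at 4.66, 6.64 and 0.453 CPM in CTL, at 57.8, 66.1 and 124 CPM in LATS and at 17.8, 16.3 and 28.7 CPM in LATS-S9.

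The cartilage list is the one closest to the known role of Sox9. Of its 21 tested genes, 2 were induced, and both were members: Omd and Ucma, a matrix protein of growth plate cartilage. Ucma was at 0.191, 0.706 and 0.634 CPM in CTL, at 4.49, 1.31 and 0.942 CPM in LATS and at 0.323, 0.180 and 0 CPM in LATS-S9, where its mean lay below that of CTL. These are low levels, and the LATS mean rested mainly on replicate 1. Across the list 5 genes (23.8%) were called lower in LATS-S9 than in LATS and 0 higher by edgeR, beside 2.16% and 1.55% of all genes tested, and 4 of the 5 were outside the members. DESeq2, which tested 28 genes of the list, called 9 lower and 1 higher, beside 750 lower and 510 higher of all 31546 genes it tested. At an unadjusted p under 0.05 edgeR had 10 of the 21 lower and 1 higher, which is 52.4%, beside 22.6% of all genes tested. The median log2 fold change was -0.80, and -0.69 without the members. Those called lower outside the members were Cnmd with a fall of 4.24 on the log2 scale (SE 1.03, adjusted p = 0.040), Snorc, Chst11 and Fgfr3. Some of these levels were low as well. Snorc had means of 36.9, 1.44 and 0.0223 CPM in CTL, LATS and LATS-S9, the last under the level of 3 counts in a library. Cnmd had means of 1.61, 7.62 and 0.374 CPM, and Chst11 of 0.753, 1.96 and 0.508 CPM. None of these 4 met the thresholds for induced genes. Fgfr3, a receptor for fibroblast growth factors, was at a mean of 58.1 CPM in CTL, 15.1 CPM in LATS and 2.85 CPM in LATS-S9.

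Among adhesion and guidance genes, Cdh2, the N-cadherin of neural and mesenchymal cells, was at 1.19, 1.78 and 3.85 CPM in CTL, at 107, 54.1 and 104 CPM in LATS and at 36.0, 41.3 and 50.1 CPM in LATS-S9, and kept 46.7% of its increase, the highest share of any member. Of 83 tested cadherins and protocadherins, 5 were induced, and Cdh2 and Pcdh7 were the members. On this list 9 genes (10.8%) were called lower and 1 (1.20%) higher in LATS-S9 against LATS, beside 2.16% and 1.55% of all genes tested. The list had a median log2 fold change of -1.07, against -0.02 over all genes tested. In LATS against CTL, 37 of its genes (44.6%) were called lower and 13 (15.7%) higher, beside 17.5% and 17.1% of all genes tested, and the list median was -1.09, against 0.04. All 9 genes called lower in LATS-S9 against LATS were outside the members. They include 4 Pcdhb and 3 Pcdhg genes. The protocadherin clusters share near-identical exons. The authors counted uniquely aligned pairs, so reads from such exons may be missing from the counts.

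Slit2, the secreted ligand of Robo receptors, was at 0.574, 1.39 and 2.94 CPM in CTL, at 10.3, 4.91 and 17.0 CPM in LATS and at 1.34, 0.685 and 1.39 CPM in LATS-S9, back within the CTL range. Its receptor gene Robo1 was not induced, with means of 27.6, 8.33 and 2.20 CPM in CTL, LATS and LATS-S9, and fell by 1.80 on the log2 scale in LATS-S9 against LATS (SE 0.41, adjusted p = 0.031). Flrt2, a leucine-rich transmembrane ligand of Unc5 receptors, was at 1.49, 5.29 and 3.83 CPM in CTL, at 61.5, 8.68 and 15.1 CPM in LATS and at 4.13, 3.30 and 5.39 CPM in LATS-S9. LATS replicate 1 carried most of its LATS mean, and LATS-S9 overlapped with CTL. Nectin3, an adhesion protein of adherens junctions, was at 1.30, 2.27 and 2.24 CPM in CTL, at 61.8, 16.6 and 37.3 CPM in LATS and at 9.13, 7.48 and 9.88 CPM in LATS-S9. Of 47 tested immunoglobulin and leucine-rich adhesion genes, 4 were induced, with Nectin3 and Flrt2 as members.

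Secreted signals formed a smaller group. Igf1, insulin-like growth factor 1, was at 0.404, 0.407 and 0.272 CPM in CTL, at 8.71, 7.06 and 8.41 CPM in LATS and at 2.16, 1.5 and 1.69 CPM in LATS-S9, with narrow spread in each group. Pgf, the placental growth factor of the VEGF family, was 4.88-fold higher in LATS than in CTL and 2.52-fold lower in LATS-S9 than in LATS. Of the 89 tested growth factor and morphogen ligands, 23 were induced, Igf1 and Pgf were members, and 3 were raised further in LATS-S9. Scube3, a secreted glycoprotein with EGF-like repeats, was at 4.57, 5.74 and 0.906 CPM in CTL, at 88.6, 35.9 and 59.0 CPM in LATS and at 7.86, 7.31 and 5.81 CPM in LATS-S9. All 3 LATS-S9 libraries of Scube3 lay just above the highest CTL library. C1qtnf1, a secreted protein of the C1q and TNF family, was 36.5-fold higher in LATS than in CTL and kept 35.8% of the increase.

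Receptors and channels were also among the members. The thrombin receptor gene F2r was at 2.26, 2.38 and 1.02 CPM in CTL, at 77.4, 73.3 and 81.8 CPM in LATS and at 16.7, 41.8 and 53.0 CPM in LATS-S9, where the libraries differed more among themselves than the LATS libraries did. The cannabinoid receptor gene Cnr1 was at 0.808, 1.24 and 0.815 CPM in CTL, at 7.21, 32.4 and 21.6 CPM in LATS and at 6.10, 5.35 and 4.19 CPM in LATS-S9, with LATS replicate 1 close to the LATS-S9 libraries. Gpr37, an orphan receptor of glia and neurons, had 0 counts in all CTL libraries, and was at 2.28, 1.83 and 5.35 CPM in LATS and at 0.113, 0.018 and 0.151 CPM in LATS-S9. Its LATS mean was at least 48.3-fold higher than the floor set by 3 counts per CTL library. Of 138 tested G protein-coupled receptors, 12 were induced and these 3 were members.

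Of 153 tested ion channel subunits, 12 were induced and 3 were members: Trpv4, a calcium-permeable channel opened by osmotic and mechanical stimuli, the epithelial calcium channel gene Trpv6, and the pacemaker channel gene Hcn4. Trpv4 was at 4.08, 3.68 and 3.53 CPM in CTL, at 43.4, 24.4 and 29.7 CPM in LATS and at 11.2, 14.1 and 18.4 CPM in LATS-S9, with no overlap. Of 280 tested solute carriers, 15 were induced and 4 were members, Slc16a12, Slc2a9, Slco5a1 and the glutamate transporter gene Slc1a2. Slc16a12, which carries creatine, was at 6.62, 7.45 and 3.6 CPM in CTL, at 33.0, 36.4 and 27.7 CPM in LATS and at 6.23, 14.5 and 12.6 CPM in LATS-S9. LATS-S9 replicate 1 of Slc16a12 lay within the CTL range. On the whole list 14 solute carriers were called lower in LATS-S9 than in LATS, 12 of them outside the members, and 5 were called higher. These are 5.0% and 1.79% of the list, beside 2.16% and 1.55% of all genes tested. Most of the 12 had a lower mean in LATS than in CTL, the exceptions being Slc40a1 and Slc6a17. In LATS against CTL, 82 solute carriers (29.3%) were called lower and 41 (14.6%) higher, beside 17.5% and 17.1% of all genes tested.

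Of 41 tested Wnt pathway genes not named Wnt, 5 were induced and Nkd2 was the member, and of 22 Notch pathway genes, 2 were induced and Lfng was the member. Nkd2, a membrane-bound antagonist of Wnt signalling through Dishevelled, was at 0.553, 0.428 and 0.113 CPM in CTL, at 94.1, 53.4 and 70.2 CPM in LATS and at 7.44, 18.4 and 41.7 CPM in LATS-S9, and was still 61.8-fold above CTL in LATS-S9. Lfng, the fringe enzyme that glycosylates Notch, was at 3.70, 5.44 and 5.95 CPM in CTL, at 21.2, 22.0 and 30.8 CPM in LATS and at 9.92, 6.95 and 6.62 CPM in LATS-S9. Prex2, an exchange factor for the GTPase Rac, was at 0.170, 0.278 and 0.294 CPM in CTL, at 9.86, 11.4 and 10.1 CPM in LATS and at 1.86, 1.57 and 1.66 CPM in LATS-S9, with no overlap between groups. Vgll1, a coactivator that binds TEAD proteins, had 0 counts in all CTL libraries and was at 5.23, 3.04 and 3.23 CPM in LATS and at 0.420, 1.08 and 0.955 CPM in LATS-S9. Its LATS mean was at least 58.7-fold higher than the same floor of 3 counts per CTL library.

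The LATS mean of the imprinted noncoding RNA gene H19 rested mainly on 1 library. H19 was at 0.553, 0.150 and 0.0453 CPM in CTL, at 39.5, 1.88 and 2.25 CPM in LATS and at 1.31, 0.504 and 1.26 CPM in LATS-S9. Without LATS replicate 1 the LATS libraries of H19 lay close above those of LATS-S9. Over all members, the highest LATS library was a median of 2.06-fold above the lowest, and in 11 members more than 4-fold, while the other 882 induced genes had a median of 1.57-fold. In LATS-S9 these medians were 1.70-fold and 1.46-fold.

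Other lists had induced genes and no member, where 11.0% of all induced genes were members, so that a short list can hold 0 without standing apart. Of 21 tested YAP and TAZ target genes, 9 were induced, 0 were members, and 0 were called in either direction in LATS-S9 against LATS by edgeR or DESeq2, with a median log2 fold change of 0.11. With 2.16% and 1.55% of all genes called, a list of this size can hold 0 calls without standing apart. At an unadjusted p under 0.05, edgeR had 2 of the 21 higher and 3 lower, which is 23.8%, beside 22.6% of all genes tested. Of 42 mitosis and replication genes, 28 were induced and 0 were members, and the median was -0.01. Of 31 interferon-stimulated genes, 19 were induced, of which 18 were raised further in LATS-S9 and 0 were members. The keratins and cornified envelope genes, 9 of them induced, and the chemokines, interleukins and their receptors, 19 of them induced, also held 0 members. So did the collagen-modifying enzymes, the TGF-beta and BMP antagonists and receptors, and the receptor tyrosine kinases, with 7 induced genes each, and 4 more lists with 1 to 4 induced genes. A list of direct Sox9 targets that the study chose on these samples had 29 induced genes and 4 members, Celf2, F2r, Cpm and Gpr37. The matching list of direct YAP and TAZ targets had 53 induced genes and 1 member, Ctnnal1, which encodes a relative of alpha-catenin. These lists were drawn from the same libraries and are no independent evidence.

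**Figure D3:**
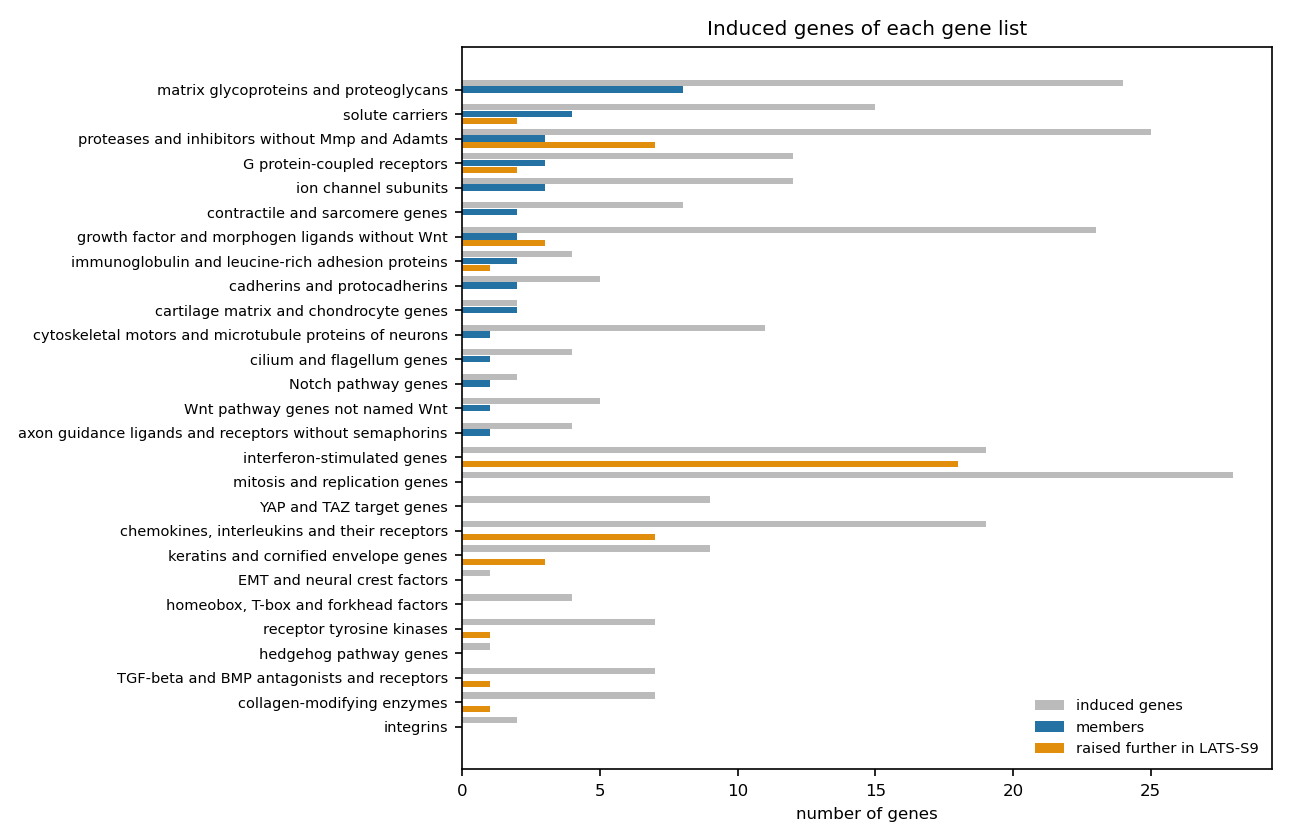
For each gene list the bars give the number of induced genes, of members and of induced genes raised further in LATS-S9. Matrix glycoproteins and proteoglycans hold 8 members of 24 induced genes, mitosis and replication genes hold 0 of 28, and 18 of 19 induced interferon-stimulated genes were raised further.

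How much of the increase was left in LATS-S9 varied over the members. The share left, which is the LATS-S9 mean minus the CTL mean as a percentage of the LATS mean minus the CTL mean, had a median of 25.1% and ran from -19.7% in Ucma to 46.7% in Cdh2. It was under 0 in 6 members, from 0 to 10% in 16, from 10 to 20% in 23, from 20 to 30% in 24, from 30 to 40% in 25 and above 40% in 15. All LATS-S9 libraries lay above all CTL libraries in 84 of the 109 members (77.1%), where this held for 33.4% of all genes tested and for 96.8% of all induced genes, and in 25 members the groups overlapped. By the fit, 76 of 108 members were called higher in LATS-S9 than in CTL and 0 lower, where 17.8% of all genes were called higher. This comparison shares both its groups with the rule, so these counts are a description. The lowest ratios of LATS-S9 to CTL among members with at least 10 CPM in LATS, leaving out predicted symbols, were those of Slit2, Pard6g, Flrt2 and Gpc4. Pard6g, a polarity protein of the PAR6 family, was at 7.49, 12.2 and 19.6 CPM in CTL, at 30.9, 60.8 and 78.9 CPM in LATS and at 13.9, 15.4 and 17.2 CPM in LATS-S9, within the CTL range.

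**Figure D4:**
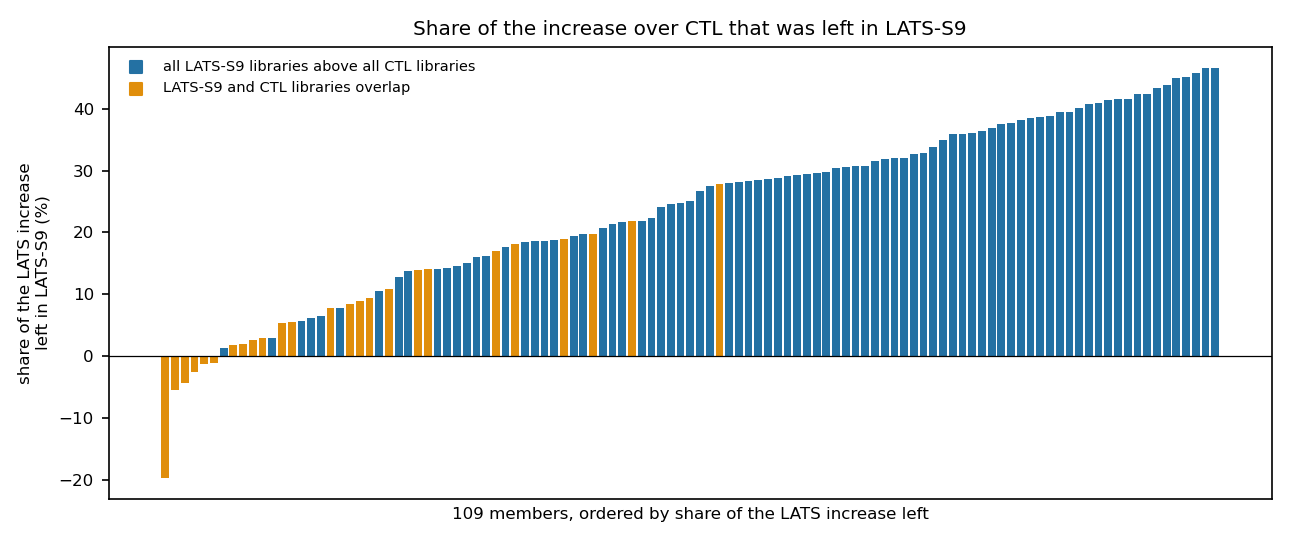
Each bar is a member, and its height is the percentage of the increase from CTL to LATS that was left in LATS-S9. Bars run from -19.7% to 46.7%, and the 25 members in which LATS-S9 and CTL libraries overlap lie mostly at the low end.

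The members were also compared by features the rule did not use. The median length of the gene from start to end was 45 kb for members, 23.8 kb for the other induced genes and 15.4 kb for all genes tested, and 24.8% of members spanned more than 100 kb, against 14.6% and 10.5%. The length of exons differed less, with medians of 4.08, 3.86 and 3.45 kb. The members were spread over the chromosomes, with 14 on chromosome 5 and 11 on chromosome 2, where 78 and 92 genes were induced. Besides the pairs named above, Pamr1 and Slc1a2 were the only member genes within 200 kb of each other, at 15.6 kb on chromosome 2.

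Because these were bulk samples, fewer cells of a type and less RNA per cell cannot be told apart. Markers of other cells were therefore read in every library. The 7 luminal keratins and surface markers summed to 16662, 16654 and 18306 CPM in CTL, 19670, 18908 and 19420 CPM in LATS and 29356, 27598 and 26010 CPM in LATS-S9, with Krt18 the most abundant in every library. The 10 mature luminal markers, which include the oestrogen and progesterone receptors, summed to 5653, 5379 and 7179 CPM in CTL, 686, 440.0 and 446 CPM in LATS and 1211, 974 and 851 CPM in LATS-S9. Of these, Ly6a, the surface antigen Sca1, was at 152, 278 and 139 CPM in LATS and at 997, 799.9 and 640.0 CPM in LATS-S9. Without Ly6a the sums were 534, 162 and 307 CPM in LATS and 214, 174 and 211 CPM in LATS-S9, which overlap, and Pgr, the progesterone receptor, was called lower in LATS-S9 than in LATS with a log2 fold change of -3.43. The 10 myoepithelial markers summed to 101, 128 and 106 CPM in CTL, 5356, 3137 and 3028 CPM in LATS and 2784, 5109 and 7130 CPM in LATS-S9. Krt14 was the most abundant of these in LATS and LATS-S9, and Acta2, itself a member, or Trp63 in CTL. The 10 luminal progenitor markers summed to 5054, 6280 and 3437 CPM in CTL, 2365, 2551 and 2251 CPM in LATS and 1215, 1190 and 1342 CPM in LATS-S9, lower in LATS-S9 than in LATS without overlap, as the members were. The part of these cell types in the members' levels was not tested.

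Members such as Postn, Ogn and Vim are also expressed by fibroblasts. The 10 fibroblast markers summed to 46.0, 83.6 and 175 CPM in CTL, 204, 51.4 and 63.6 CPM in LATS and 51.6, 75.1 and 141 CPM in LATS-S9, so that LATS and LATS-S9 overlapped. The most abundant was Dcn in CTL, at 29.8, 62.1 and 148 CPM, and Col3a1 or Col1a1 in most other libraries. Dcn was at 26.1, 5.52 and 22.2 CPM in LATS and at 0.484, 2.16 and 5.98 CPM in LATS-S9. Pdgfra, which defines fibroblasts, was at 6.25, 7.90 and 5.43 CPM in CTL, at 7.27, 4.02 and 3.66 CPM in LATS and at 0.613, 1.19 and 2.98 CPM in LATS-S9, lower in all LATS-S9 libraries than in any LATS library. Col3a1 did not follow these 2 genes. It was at 80.3 and 23.8 CPM in LATS replicates 1 and 2 and at 26.9 and 57.6 CPM in LATS-S9 replicates 2 and 3. The list median of LATS-S9 against LATS was -0.35 on the log2 scale, against -0.02 over all genes tested. None of the 10 markers was at 0 in any library, 2 were induced, 0 were members, and by edgeR 0 were called between LATS-S9 and LATS, where 2.16% of all genes were called lower and 1.55% higher, so that a count of 0 in so short a list shows little. DESeq2 called 1 lower, and at an unadjusted p under 0.05 edgeR had 2 lower and 0 higher of the 10 markers, beside 22.6% of all genes tested. The part of fibroblast RNA in the members' levels was not tested.

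The 10 endothelial markers summed to 122, 102 and 116 CPM in CTL, 28.7, 19.8 and 21.2 CPM in LATS and 7.97, 19.9 and 22.6 CPM in LATS-S9. Vwf alone made up 102, 87.0 and 95.0 CPM of the CTL sums, and without it the sums were 19.5, 15.3 and 20.8 CPM in CTL, 23.5, 18.4 and 18.3 CPM in LATS and 6.89, 17.9 and 19.2 CPM in LATS-S9. The 6 pericyte markers summed to 401, 383 and 306 CPM in CTL, 82.4, 32.2 and 66.0 CPM in LATS and 55.2, 63.0 and 73.6 CPM in LATS-S9, almost all of it Notch3, which luminal cells also express. The 13 haematopoietic markers summed to 35.1, 23 and 19.3 CPM in CTL, 105, 61.6 and 41.8 CPM in LATS and 64.7, 69.1 and 91.6 CPM in LATS-S9, with Csf1r the most abundant in LATS and LATS-S9. The 6 adipocyte markers, led by Fabp4, summed to 6.21, 5.05 and 10.3 CPM in CTL, 9.86, 67.7 and 32.0 CPM in LATS and 1.68, 22.0 and 20.2 CPM in LATS-S9. In LATS against CTL, 4 of them (66.7%) were called higher and 1 (16.7%) lower, beside 17.1% and 17.5% of all genes tested. The list median was 4.73 on the log2 scale there and -1.38 in LATS-S9 against LATS, the direction of the members. These medians rest on low counts. At most 3 counts were found for 4, 3 and 3 of the 6 markers in CTL and for 3, 0 and 1 in LATS. The sum of LATS replicate 1 lay within the CTL range. In the second comparison 0 were called, beside 2.16% of all genes lower and 1.55% higher. LATS replicate 2, with the highest adipocyte sum, was the highest LATS library for 42.2% of members and for 38.4% of all induced genes. The 10 Schwann cell and neuron markers summed to 196, 193 and 132 CPM in CTL, 137, 170 and 175 CPM in LATS and 152, 161 and 154 CPM in LATS-S9. Of the 6 tested, edgeR called 1 (16.7%) lower in LATS-S9 than in LATS, Egr2, with a log2 fold change of -1.65 (SE 0.19, adjusted p = 0.0032). The list median was 0.04. The part of these cells in the members' levels was not tested.

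**Figure D5:**
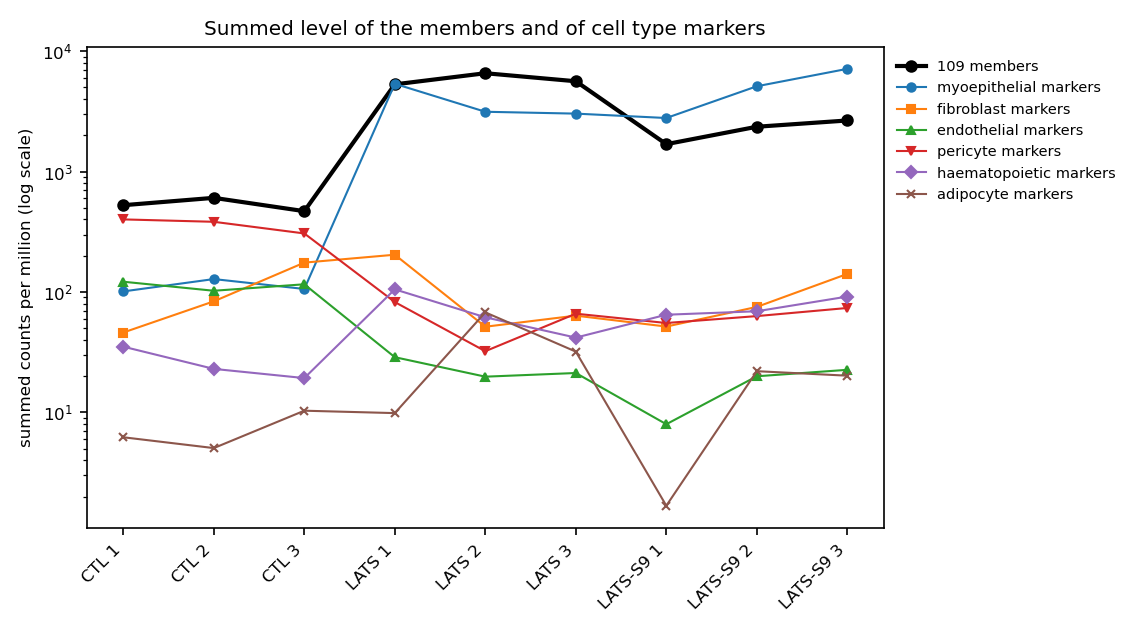
Summed CPM on a log axis in each of the 9 libraries for the 109 members and for 6 lists of cell type markers. The member line is at 469 to 605 in CTL, 5299 to 6556 in LATS and 1688 to 2656 in LATS-S9, while each of the 6 marker lines drawn overlaps between LATS and LATS-S9. Of the lists not drawn, the luminal progenitor sum was lower in LATS-S9 than in LATS without overlap, and the sums of luminal keratins and of mature luminal markers were higher without overlap. Without Ly6a the mature luminal sums of LATS and LATS-S9 overlapped.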

How the data were processed

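RNA was measured in 9 libraries of sorted mouse mammary cells, 3 each of CTL, LATS and LATS-S9. The authors aligned reads to mm10 with STAR (version 2.6.0c) and deposited raw read counts per gene, made with featureCounts of Subread (version 1.6.2). Libraries held 44167762 to 61967651 counts, and intervals or floors from them cover counting error only. Counts were divided by column totals to give CPM, to which the rule was applied.

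All 9 libraries were fitted in edgeR (version 4.0.16, R version 4.3.3) with TMM factors, the filterByExpr filter and the quasi-likelihood test over 19357 genes, with Benjamini-Hochberg adjustment. DESeq2 (version 1.42.0), other normalizations and filters, a fold change of 2 tested with glmTreat, a replicate block and each library left out were the alternatives. The edgeR script was tested on simulated data for LATS-S9 against LATS, over 19357 genes, of which 18834 passed its filter. It recovered 65.5% of 200 genes changed 4-fold, with 8 false calls. On the same simulated data DESeq2 recovered 79%, with 35 false calls.

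The members and gene lists were chosen with earlier results of these data known. Genes named were the 12 members highest per kilobase of exon, the 12 with the lowest ratio of LATS-S9 to LATS, the 4 highest and 4 lowest in LATS-S9 against CTL (the last 3 sets from 10 CPM in LATS), those nearest the thresholds, up to 4 members of each list, and Lats1, Lats2, Sox9, Yap1, Wwtr1 and Krt14. Predicted symbols were left out. Genes named outside these sets, including all non-members of the lists, were chosen after their values were seen. Gene positions and lengths came from GENCODE annotation on GRCm38 and promoters from RefSeq.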

Additional observations from a re-analysis of the deposited data

How the results depend on the processing

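The rule found 95 genes with TMM library sizes, 93 with DESeq2 size factors and 113 without the 100 most counted genes in the totals, and from 102 (without CTL replicate 1) to 179 (without LATS replicate 1) with 1 library left out. With at least 10 counts required in every library, 69 members were called higher in LATS than in CTL and 45 higher in LATS-S9 than in CTL, since fewer genes were then tested. With glmTreat, 1 member and 14 genes in all were called lower in LATS-S9 than in LATS, 1962 genes were called higher in LATS than in CTL and 2240 higher in LATS-S9 than in CTL. With DESeq2, 86 members and 750 genes in all were called lower in LATS-S9 than in LATS. With 1 library left out these counts ran from 6 (without LATS-S9 replicate 2) to 61 (without LATS replicate 1) for members and from 78 to 582 for all genes, without the same libraries. The cause was not tested.

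Some small log2 fold changes turned sign. With 1 library left out, LATS-S9 against LATS ran from -0.0356 to 0.2856 for Lats2 and from -0.1937 to 0.0432 for Yap1. LATS-S9 against CTL ran from -0.5342 to 1.7335 for Dcdc2a, from -0.0420 to 0.7082 for Flrt2, from -0.1721 to 0.6627 for Slc1a2 and from -0.8824 to 0.2822 for Slit2.

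Same-numbered libraries did not all deviate together, with correlations of deviations from -0.07 to 0.17, beside -0.16 to 0.06 between differently numbered libraries. The highest were 0.17 between LATS and LATS-S9 replicates 2 and 0.10 between LATS and LATS-S9 replicates 1. Whether same-numbered libraries share a batch was not tested. With a replicate block, 42 members in place of 56 and 336 genes in place of 418 were called lower in LATS-S9 than in LATS, 106 members were called higher in LATS than in CTL and 76 higher in LATS-S9 than in CTL. The block gave Dcdc2a a log2 fold change of 0.3959 in LATS-S9 against CTL. At this depth, 3 counts came to at most 0.0679 CPM in a library.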

Other observations

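The 10 genes that met every level of the rule but were left out by their symbols were Col4a2, Col18a1, Col27a1, Sema3a, Sema3d, Sox11, Sox21, Adamts16, Adamts20 and Mmp13. Sox11, a SOX factor of embryonic neural progenitors, had 1, 0 and 0 counts in CTL and was at 69.1, 43.4 and 116 CPM in LATS and at 31.2, 26.4 and 28.9 CPM in LATS-S9. Col4a2, a basement membrane collagen chain, was at 5.43, 6.19 and 2.33 CPM in CTL, at 58.2, 65.8 and 93.2 CPM in LATS and at 11.5, 32.1 and 42.8 CPM in LATS-S9. Mmp13, a collagenase, was at 0.234, 0.193 and 0.430 CPM in CTL, at 73.5, 29.8 and 45.8 CPM in LATS and at 11.6, 19.7 and 27.1 CPM in LATS-S9. In Col4a2 and Mmp13, LATS-S9 replicate 1 was the lowest of its group, as it was for most members.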
